A study of Homo sapiens with 18 samples.

Results

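The comparison of 0.5 ppm airborne formaldehyde with a formaldehyde-free reference chamber rests on 6 of the 18 arrays of the study. They hold RNA of A549 cells, an established human lung carcinoma line with features of alveolar type II cells, grown on membranes at the air-liquid interface, where the apical side faces the gas. In each of 3 experiments 1 culture spent 72 h in an exposure chamber at 0.5 ppm formaldehyde and 1 culture spent the same time in a parallel reference chamber without formaldehyde, and the arrays were chosen by these labels and paired by experiment. The remaining 12 arrays come from experiments with 0 ppm or 0.1 ppm in the exposure chamber, 3 of each, every one with its own reference chamber. All cultures shared the cell line, the medium and a warm, humidified atmosphere. The exposure chamber also had an evaporated carrier stream that the reference chamber lacked, so formaldehyde and this feature cannot be told apart within the 0.5 ppm experiments, whereas the 0 ppm experiments measure the chambers without formaldehyde. The replicates are separate experiments run in random order. The p-values of this comparison set a difference against a spread estimated from these 3 experiments of 1 cell line and from all probesets together.

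Formaldehyde is a reactive aldehyde that crosslinks proteins and DNA. Cells bind it to glutathione and oxidise the adduct to formate through the dehydrogenase ADH5 and the thioesterase ESD, other aldehyde dehydrogenases oxidise the free aldehyde, and formate enters the folate-bound one-carbon pool. Electrophiles also release the transcription factor NRF2 from KEAP1, which raises enzymes of glutathione and thioredoxin metabolism. A549 cells carry an inactive KEAP1, so that NRF2 targets are high without treatment.

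Signals are linear MAS5 values, a summary of the probes of a probeset on which every array has a trimmed mean of 500. A log2 difference is the mean over the 3 experiments of the log2 signal in the exposure chamber minus that in the reference chamber. Rises and falls are sized on this scale. The standard error (SE) is that of limma, which draws the spread of each probeset toward a value shared by all probesets. For most bright probesets this makes the SE larger than their 3 differences alone would. A probeset is called higher or lower where limma, with the experiment as a block, gave an unadjusted p under 0.05. The median signal of the arrays was between 27.7 and 31.1 in the 0.5 ppm chamber and between 28.1 and 32.8 in the reference chamber. The 5' probeset of actin, which falls where RNA is degraded, was at 433, 377 and 226 in the 0.5 ppm chamber, against 408, 348 and 289 in the reference chamber. Its ratio of 3' to 5' signal was highest in experiment 3, at 94.8 in the 0.5 ppm chamber and 71.5 in the reference chamber. Far higher ratios were seen in the reference chamber of experiment 3 at 0 ppm, at 190, and of experiment 1 at 0.1 ppm, at 408. The lowest correlation between any 2 of the 6 arrays was 0.935.

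Few probesets separated the 0.5 ppm chamber from its reference chamber, and which range of signal held the calls depended on how limma estimated the spread. Of 54675 probesets 2908 were called (5.32%), 1291 higher (2.36%) and 1617 lower (2.96%). None passed a Benjamini-Hochberg adjusted p under 0.05, and the lowest adjusted p in limma was 0.834. Among the 27337 probesets with a mean log2 signal above that of the median probeset, which corresponds to a signal of 27.5, 283 were called (1.04%), 61 higher (0.223%) and 222 lower (0.812%). Among the 13669 above the 75th percentile, a signal of 318, there were 11 (0.0805%), 5 higher (0.0366%) and 6 lower (0.0439%). Without experiment 1, 2 or 3 the brighter probesets had 59, 120 and 48 calls, and 155 without the pairing by experiment. After quantile normalization the split of the brighter probesets was 119 higher to 139 lower, so the excess of lower calls depended on the scaling. When limma's prior spread was allowed to follow the signal, 1389 brighter probesets (5.08%) were among 2586 called in all, so that most calls were then above the median, 383 higher (1.4%) and 1006 lower (3.68%), and 684 were above the 75th percentile (5%). With an offset of 32 added to each signal 1740 of 2899 calls were above the median. Again none passed after adjustment, and the lowest adjusted p in limma was 0.358.

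**Figure D1:**
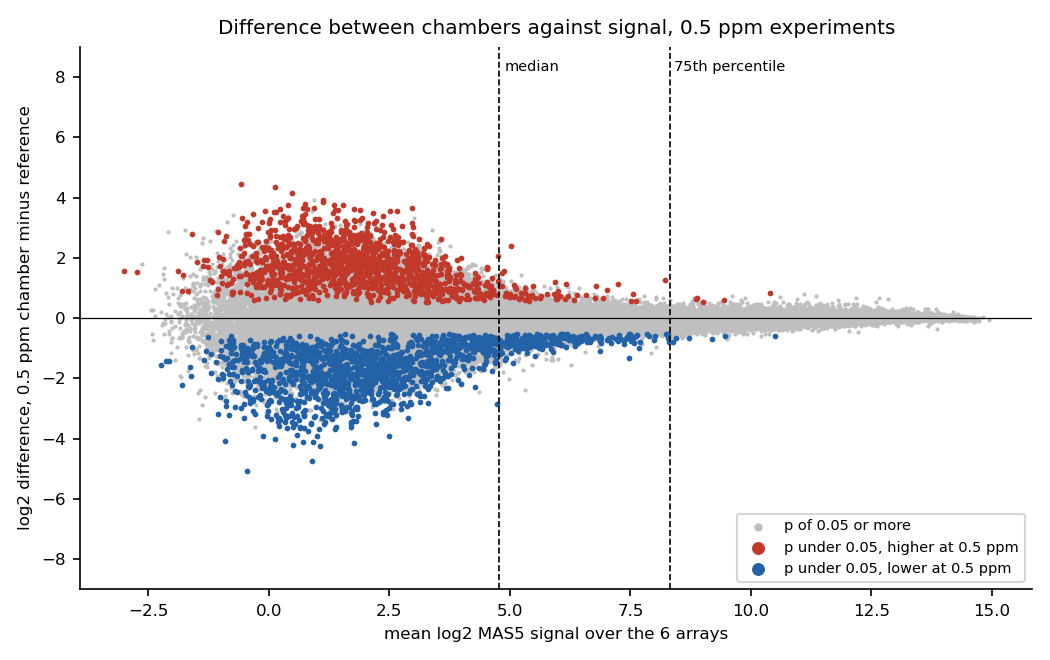
Log2 difference between the 0.5 ppm and the reference chamber (y axis, mean of 3 experiments) against the mean log2 signal over the 6 arrays (x axis) for 54675 probesets. Red and blue points had an unadjusted p under 0.05 in limma with experiment as a block and were higher or lower at 0.5 ppm; dashed lines mark the median and the 75th percentile of signal. The called probesets lie mostly left of the median, and 11 lie right of the 75th percentile.

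At the median, the mean differences of bright probesets were smaller than the spread of the 3 differences behind them. The median size of the log2 difference was 0.13 above the median signal and 0.09 above the 75th percentile. The median SD of the 3 differences of a probeset was 0.27 and 0.20 in the same sets. The median of all log2 differences was -0.04, and the 3 experiments had medians of -0.02, -0.03 and -0.08.

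HMOX1, heme oxygenase 1, which degrades heme and is a classical target of NRF2 and of oxidant stress, was lower at 0.5 ppm. Its probeset (203665_at) read 221, 350 and 177 in the 0.5 ppm chamber, against 337, 586 and 353 in the reference chamber of experiments 1, 2 and 3. Signals of the chambers overlapped, since the second experiment was high in both, but within every experiment the 0.5 ppm culture was below its partner. The log2 difference was -0.78 ± 0.19 (SE, n = 3 experiments), an unadjusted p of 0.0217 and an adjusted p of 0.899 in limma. Without the pairing the unadjusted p in limma was 0.09, and HMOX1 did not pass when any 1 experiment was left out. At 0 ppm and 0.1 ppm the log2 differences of HMOX1 were -0.28 ± 0.35 and -0.09 ± 0.41. The difference at 0.5 ppm was not separable from either by the interaction test in limma, with unadjusted p of 0.23 and 0.139.

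The other NRF2 targets did not share this. Of 25 measured genes HMOX1 was the 1 that was called in either direction, and the median log2 difference of the list was -0.03, against -0.04 over all 19775 genes represented by their brightest probeset, of which 803 (4.06%) were called, 377 higher (1.91%) and 426 lower (2.15%). NRF2 targets were bright, all 25 above the median signal, where 92 of 12385 genes (0.743%) were called. NQO1, a quinone reductase, was among the brightest genes on the arrays, with 18731, 20379 and 31365 in the 0.5 ppm chamber, against 16158, 27287 and 28481 in the reference chamber. Its log2 difference was -0.02 ± 0.23. GCLM, the modifier subunit of the enzyme that starts glutathione synthesis, differed by 0.28 ± 0.21 with an unadjusted p of 0.272 in limma. OSGIN1, an oxidative stress-induced growth inhibitor, differed by -0.26 ± 0.18. The list was below 0 in the second experiment, with a median of -0.31, and above 0 in the other two, at 0.08 and 0.13.

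Enzymes that remove formaldehyde were bright and differed little between the chambers. ADH5 read 6800, 6713 and 8885 in the 0.5 ppm chamber, against 6290, 7059 and 8460 in the reference chamber, a log2 difference of 0.04 ± 0.17. ESD differed by 0.12 ± 0.17, ALDH2, the mitochondrial aldehyde dehydrogenase, by 0.01 ± 0.18, and ALDH3A2, a dehydrogenase of fatty aldehydes, by 0.12 ± 0.19. None of the 10 measured genes of formaldehyde oxidation was called, and all lay between -0.10 and 0.12. All 10 were above the median signal, where 92 of 12385 genes (0.743%) were called, so a count of 0 in so few genes says little. Of 12 folate one-carbon enzymes, 11 of them above the median signal, 0 were called. SHMT1, which moves a one-carbon unit from serine to tetrahydrofolate, read 1460, 2000 and 1508 in the 0.5 ppm chamber, against 1090, 1522 and 1182 in the reference chamber. It was higher in 3 of 3 experiments, by 0.39 ± 0.17, and missed the threshold with an unadjusted p of 0.096 in limma. When limma's prior spread followed the signal, SHMT1 had an unadjusted p of 0.00444 and an adjusted p of 0.951. MTHFD1, which interconverts folate-bound one-carbon units, differed by -0.28 ± 0.19. Its unadjusted p in limma was 0.224, and 0.0359 with the prior spread following the signal.

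Secreted and surface glycoproteins of the airway had the lowest median of the 26 pathway lists. Of 19 measured mucins and secretory genes 17 had a lower mean and 2 a higher one in the 0.5 ppm chamber. The median log2 difference was -0.23, against -0.04 over all genes. Among all genes 2.15% were called lower and 1.91% higher, and 0.743% were called among those above the median signal, where 14 of the 19 lay. Of the 19, 2 were called lower and 0 higher. The medians of the 3 experiments were -0.20, -0.38 and -0.08. The same list had medians of -0.20 at 0 ppm and -0.32 at 0.1 ppm.

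MUC1, a transmembrane mucin of the apical surface, was 1 of these 2. Its brightest probeset (213693_s_at) read 120, 110 and 203 in the 0.5 ppm chamber, against 192, 198 and 261 in the reference chamber. Every 0.5 ppm culture was below its partner, although the third 0.5 ppm culture was above the first and second reference cultures. The log2 difference was -0.63 ± 0.20 with an unadjusted p of 0.0453 in limma. All 3 MUC1 probesets were lower, the other two by -0.46 ± 0.26 and -1.17 ± 0.31. At 0 ppm the difference was -0.44 ± 0.43 and at 0.1 ppm -0.50 ± 0.41, means of the same sign. The interaction tests in limma had unadjusted p of 0.699 and 0.755. At 0 ppm MUC1 read 153, 272 and 190 in the exposure chamber, against 186, 223 and 473 in the reference chamber. Experiment 2 thus went the other way. At 0.1 ppm MUC1 read 173, 127 and 185, against 347, 175 and 189. At 0 ppm and 0.1 ppm the largest gaps were in the experiments whose reference arrays had the highest actin ratios. At 0.5 ppm the experiment with the highest reference ratio, experiment 3, had the smallest gap. The part of RNA quality was not tested. MUC1 did not pass after quantile normalization, without the pairing (unadjusted p in limma of 0.0721 and 0.107) or when any 1 experiment was left out.

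The sequence around the start of MUC1 is shown as an example of a called gene whose probesets were all lower. Other genes, such as STARD10 and PIGV, met this too and are not shown, and no window was found for HMOX1. The MUC1 window covers 250 bases before and 50 after the start as RefSeq places it on GRCh38.p14, chr1:155192866-155193165, minus strand. RefSeq lists another MUC1 start a few bases away, and positions are counted from the one shown. Capitals mark GGGCGG, the GC box, and TATAAA, the TATA box, searched on both strands; the GC boxes at -54, -50 and -46 from the start overlap.
MUC1: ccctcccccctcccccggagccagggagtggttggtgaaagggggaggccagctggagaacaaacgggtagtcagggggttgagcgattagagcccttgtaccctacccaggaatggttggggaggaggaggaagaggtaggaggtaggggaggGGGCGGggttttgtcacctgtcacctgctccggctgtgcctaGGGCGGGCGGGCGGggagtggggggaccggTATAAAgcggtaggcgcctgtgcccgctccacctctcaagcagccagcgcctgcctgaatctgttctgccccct
The TATA box starts at -24. Of 27305 promoter windows of this length 44.6% hold GGGCGG and 12% hold TATAAA.

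MUC4, another transmembrane mucin, was the second called member, with a log2 difference of -1.51 ± 0.46 and an unadjusted p of 0.0414 in limma. It was dim, with 27.6, 14.2 and 5.91 in the 0.5 ppm chamber, against 54.4, 27.3 and 36.3 in the reference chamber, and of its 6 probesets 4 were lower, while the next brightest rose by 1.11 ± 0.18. FCGBP, the IgG Fc-binding protein, a large secreted partner of mucins that was not on the list, was bright. Its probeset (203240_at) read 1088, 1391 and 1073 in the 0.5 ppm chamber, against 1538, 2236 and 1641 in the reference chamber, and the chambers did not overlap. The log2 difference was -0.60 ± 0.17 with an unadjusted p of 0.0351 in limma. At 0 ppm it was -0.63 ± 0.39 and at 0.1 ppm -0.65 ± 0.41, so the mean difference was about as large without formaldehyde. It was uneven between experiments. At 0 ppm FCGBP read 1595, 2133 and 1708 in the exposure chamber, against 1610, 3134 and 4257 in the reference chamber. At 0.1 ppm it read 1685, 1547 and 1200, against 3873, 2240 and 1397. At 0 ppm and 0.1 ppm the largest gaps were in the experiments whose reference arrays had the highest actin ratios. At 0.5 ppm the largest gap was in experiment 2 and the highest reference ratio in experiment 3. The part of RNA quality was not tested. FCGBP did not pass when any 1 experiment was left out. MUC5B, a gel-forming mucin, and TFF1, a trefoil peptide secreted with mucins, differed by -0.52 ± 0.18 and -0.45 ± 0.23 and did not pass.

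LAMB3, the beta chain of laminin 332 in the epithelial basement membrane, was also called lower. It read 93.0, 126 and 156 in the 0.5 ppm chamber, against 177, 281 and 225 in the reference chamber, without overlap. The log2 difference was -0.87 ± 0.22, with an unadjusted p of 0.0247 in limma, and LAMB3 passed in 1 of the 3 fits that left out an experiment. The differences at 0 ppm and 0.1 ppm were -1.03 ± 0.43 and -0.99 ± 0.44, and the interaction tests in limma gave unadjusted p of 0.768 and 0.798. At 0 ppm LAMB3 read 130, 220 and 145 in the exposure chamber, against 174, 360 and 554 in the reference chamber. At 0.1 ppm it read 197, 82.5 and 131, against 554, 190 and 160. The largest gaps there were in the experiments whose reference arrays had the highest actin ratios. At 0.5 ppm the experiment with the highest reference ratio had the smallest gap. The part of RNA quality was not tested. Among 36 measured mesenchymal and matrix genes LAMB3 was the 1 called, and their median was -0.05.

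**Figure D2:**
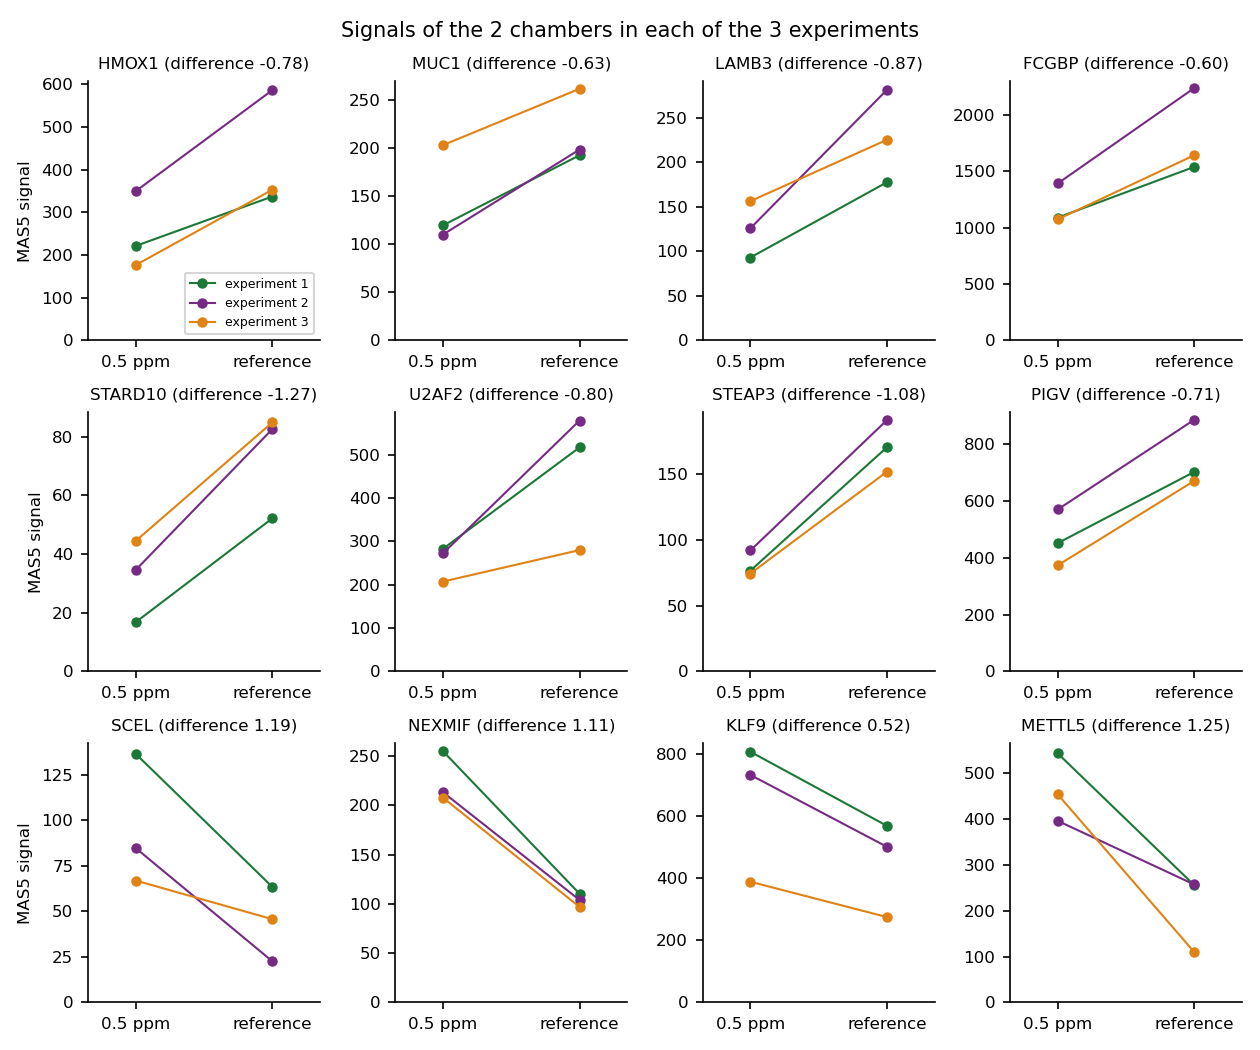
MAS5 signals of 12 genes in the 0.5 ppm chamber (left) and the reference chamber (right); each line joins the cultures of 1 experiment, and the mean log2 difference stands above each panel. All 3 lines run the same way in every panel, which was a condition for naming all of these genes but HMOX1, MUC1 and LAMB3. Those 3 were chosen for their p. Of all genes by their brightest probeset, 10.4% were higher and 16.1% lower in all 3 experiments. For NEXMIF the 0.5 ppm cultures sit between 208 and 255, above the reference cultures at 96.9 to 110.

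The genes named next are the largest differences among probesets that pointed the same way in all 3 experiments, above the median signal and, in a second step, above the 75th percentile. Above the median 228 such probesets of 1 gene each were called, 45 higher and 183 lower, and 12 genes in each direction are named. Above the 75th percentile there were 11 in all, 5 higher and 6 lower, and each is named. For 16 of the 24 probesets of the first step the gene has a brighter probeset, which was not called in any case and had the same sign in 6. Differences of other probesets of the gene are given beside many of them. Of these 35 probesets 6 passed without experiment 1, 7 without experiment 2 and 11 without experiment 3, and ZNF358, NEXMIF and TIPRL passed in all 3 of these fits.

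Of the genes called higher, SCEL and NEXMIF rested on their brightest probesets. SCEL, sciellin, is a precursor of the cornified envelope of stratified epithelia. Its probeset (232056_at) read 136, 84.7 and 66.9 in the 0.5 ppm chamber, against 63.5, 22.6 and 45.7 in the reference chamber, a log2 difference of 1.19 ± 0.35 with an unadjusted p of 0.0374 in limma. All 4 SCEL probesets were higher, the other three by 0.60 ± 0.24, 2.87 ± 0.24 and 1.59 ± 0.51, the last 2 of them dim. SCEL differed by 1.23 ± 0.57 at 0 ppm and by 2.15 ± 1.24 at 0.1 ppm, and the interaction tests in limma gave unadjusted p of 0.957 and 0.548. At 0 ppm it read 166, 135 and 92.0 in the exposure chamber, against 80.0, 124 and 16.2 in the reference chamber. At 0.1 ppm it read 62.2, 227 and 95.4, against 1.34, 108 and 107, so that experiment 3 went the other way. At 0 ppm and 0.1 ppm the largest gaps were again in the experiments whose reference arrays had the highest actin ratios. At 0.5 ppm the experiment with the highest reference ratio, experiment 3, had the smallest SCEL gap. The part of RNA quality was not tested.

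The window around the SCEL start (chr13:77535456-77535755, plus strand, RefSeq on GRCh38.p14) is shown as an example of a called gene whose probesets were all higher. Capitals mark TGANTCA, the AP-1 motif, which here overlaps TGACNNNGC, the core of the antioxidant response element bound by NRF2; both strands were searched for both.
SCEL: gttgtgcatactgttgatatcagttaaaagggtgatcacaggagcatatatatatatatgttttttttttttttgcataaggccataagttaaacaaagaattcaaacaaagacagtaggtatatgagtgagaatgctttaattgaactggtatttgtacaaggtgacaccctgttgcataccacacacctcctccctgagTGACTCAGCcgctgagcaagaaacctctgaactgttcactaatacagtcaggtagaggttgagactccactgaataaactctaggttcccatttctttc
The match starts at -49. Of 27305 windows 7.76% hold TGANTCA and 13.6% hold TGACNNNGC, and a match does not show that a factor binds there.

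NEXMIF, a neurite extension and migration factor encoded on chromosome X, rose without overlap of the chambers. Its probeset (244370_at) read 255, 213 and 208 in the 0.5 ppm chamber, against 110, 104 and 96.9 in the reference chamber, a 2.17-fold ratio and a log2 difference of 1.11 ± 0.17 with an unadjusted p of 0.00564 in limma. It was higher by 0.24 ± 0.34 at 0 ppm and by 0.85 ± 0.61 at 0.1 ppm, and the interaction test against 0 ppm in limma gave an unadjusted p of 0.0513. The other two NEXMIF probesets were dim and differed by 0.48 ± 1.38 and -1.15 ± 1.85. TCP11L2 and CDK14, a cyclin-dependent kinase, also rose in their brightest probesets, by 1.07 ± 0.29 and 1.04 ± 0.26, as did PDGFRA, a receptor of platelet-derived growth factor, by 0.98 ± 0.25. These 3 were near the median signal, with means of 46.6, 49.7 and 49.0 in the 0.5 ppm chamber, against 23.3, 25.3 and 26.1 in the reference chamber. Of the probesets of TCP11L2 6 of 7 were higher, of CDK14 2 of 3 and of PDGFRA 3 of 4, the exceptions differing by -0.47 ± 0.80, -0.11 ± 0.32 and -0.45 ± 0.56.

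The largest rise was seen in a probeset that its gene did not share. ZNF358, a zinc finger protein, read 56.0, 76.5 and 97.9 in the 0.5 ppm chamber, against 14.0, 13.2 and 15.7 in the reference chamber, a log2 difference of 2.39 ± 0.23 with an unadjusted p of 0.00124 in limma. The brighter ZNF358 probeset differed by -0.33 ± 0.19. The higher probeset bears the suffix x, which the maker gives to probesets that may also bind other transcripts. VIM, the intermediate filament vimentin, likewise rose by 0.95 ± 0.26 in an x probeset, while its main probeset differed by -0.04 ± 0.18. METTL5, a methyltransferase of ribosomal RNA, read 543, 396 and 454 in the 0.5 ppm chamber, against 256, 257 and 110 in the reference chamber, a log2 difference of 1.25 ± 0.37, and its brighter probeset differed by 0.19. INO80C, a subunit of the INO80 chromatin remodeller, rose by 1.05 ± 0.22 and differed by 0.19 in its brighter probeset. ZFPL1, ADCK2 and TOX4 rose by 1.07, 0.83 and 0.82 in dim probesets, and their brightest probesets differed by -0.41, -0.07 and -0.07.

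Above the 75th percentile the 5 higher probesets belonged to TCF3, PCM1, IPP, DMAC2L and KLF9. TCF3, a basic helix-loop-helix transcription factor, read 1212, 2382 and 2005 in the 0.5 ppm chamber, against 962, 1260 and 870 in the reference chamber, a log2 difference of 0.82 ± 0.26. TCF3 has 14 probesets, of which 5 were higher and the brightest differed by -0.08. PCM1, a protein of the pericentriolar material, rose by 0.67 ± 0.22 while its brightest probeset differed by 0.10 ± 0.19, and IPP rose by 0.64 ± 0.21 in its brightest probeset. KLF9, a zinc finger transcription factor that glucocorticoids induce, read 808, 733 and 389 in the 0.5 ppm chamber, against 569, 502 and 275 in the reference chamber. The log2 difference of KLF9 was 0.52 ± 0.17 with an unadjusted p of 0.0479 in limma, and 3 of its 5 probesets were higher, while the dimmest was called lower, at -1.06 ± 0.26. DMAC2L rose by 0.60 ± 0.18 in this probeset, and another, dimmer DMAC2L probeset was among the largest falls, at -1.13 ± 0.25.

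Of the genes called lower above the median, STARD10, MESD and STEAP3 were lower in all their probesets. STARD10, a phospholipid transfer protein, read 16.8, 34.6 and 44.4 in the 0.5 ppm chamber, against 52.1, 82.5 and 84.8 in the reference chamber, a log2 difference of -1.27 ± 0.23 with an unadjusted p of 0.00924 in limma. Its other two probesets differed by -0.43 ± 0.23 and -0.29 ± 0.23, and it was also lower at 0 ppm, by -0.93 ± 0.32. MESD, a chaperone for receptors of the LDL receptor family, fell, with a log2 difference of -1.19 ± 0.33 in a dim probeset, and the brightest of its 5 differed by -0.02 ± 0.18. STEAP3, a metalloreductase of cellular iron uptake, read 76.6, 91.9 and 74.4 in the 0.5 ppm chamber, against 170, 191 and 152 in the reference chamber, without overlap. The log2 difference of STEAP3 was -1.08 ± 0.17 with an unadjusted p of 0.00604 in limma, and its brighter probeset differed by -0.14.

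The other falls above the median were each called in 1 probeset of the gene. ZBTB17, a transcription factor that partners with MYC, and SLC1A2, a glutamate transporter, fell in their brightest probesets, with log2 differences of -1.48 ± 0.38 and -1.14 ± 0.26. The other ZBTB17 probeset differed in the opposite direction, by 1.05 ± 0.61, and 3 of 6 SLC1A2 probesets were lower, the next brightest differing by 0.01 ± 0.70. CSF2RA, a subunit of the receptor of granulocyte-macrophage colony-stimulating factor, fell, with a log2 difference of -1.06 ± 0.33 in a probeset near the median. Its next brightest differed by 0.55 ± 0.65, and 3 of its 4 probesets were lower. TIPRL, a regulator of phosphatases in TOR signalling, fell, with a log2 difference of -1.32 ± 0.19 in an x probeset, with an unadjusted p of 0.00424 in limma, while its 2 brightest probesets differed by 0.39 ± 0.48 and 0.25 ± 0.25. FBXO32, the ubiquitin ligase atrogin-1, fell, with a log2 difference of -1.18 ± 0.34. Of its 7 probesets 5 were lower, and the brightest differed by 0.47 ± 0.29. TSNARE1, TC2N and the noncoding TMEM161B-DT fell, with log2 differences of -1.38, -1.16 and -1.09, and their brightest probesets differed by 0.06, 0.08 and -0.48. Of their probesets 1 of 3, 1 of 3 and 3 of 4 were lower.

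The 6 lower probesets above the 75th percentile belonged to U2AF2, PIGV, XPO6, NXT1, SBF1 and FCGBP, the last described above. U2AF2, the splicing factor that binds the polypyrimidine tract, read 283, 273 and 207 in the 0.5 ppm chamber, against 517, 579 and 280 in the reference chamber, a log2 difference of -0.80 ± 0.22 with an unadjusted p of 0.0332 in limma. All 4 U2AF2 probesets were lower, and the differences at 0 ppm and 0.1 ppm were -0.10 ± 0.29 and 0.10 ± 0.37. NXT1, a cofactor of messenger RNA export, read 211, 547 and 325 in the 0.5 ppm chamber, against 311, 913 and 529 in the reference chamber, which is -0.67 ± 0.17. XPO6, the export receptor of actin, differed by -0.67 ± 0.21 and was lower in both its probesets. The cultures of experiment 2 read highest in both chambers for NXT1 and XPO6, so that the chambers overlapped. PIGV, a mannosyltransferase of GPI anchor synthesis, read 451, 570 and 373 in the 0.5 ppm chamber, against 702, 885 and 670 in the reference chamber, without overlap. PIGV fell, with a log2 difference of -0.71 ± 0.18 with an unadjusted p of 0.0235 in limma, and its 3 probesets were all lower. SBF1, a catalytically inactive relative of myotubularin phosphatases, fell, with a log2 difference of -0.59 ± 0.19, and 4 of its 5 probesets were lower while the dimmest rose by 1.12 ± 0.30.

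**Figure D3:**
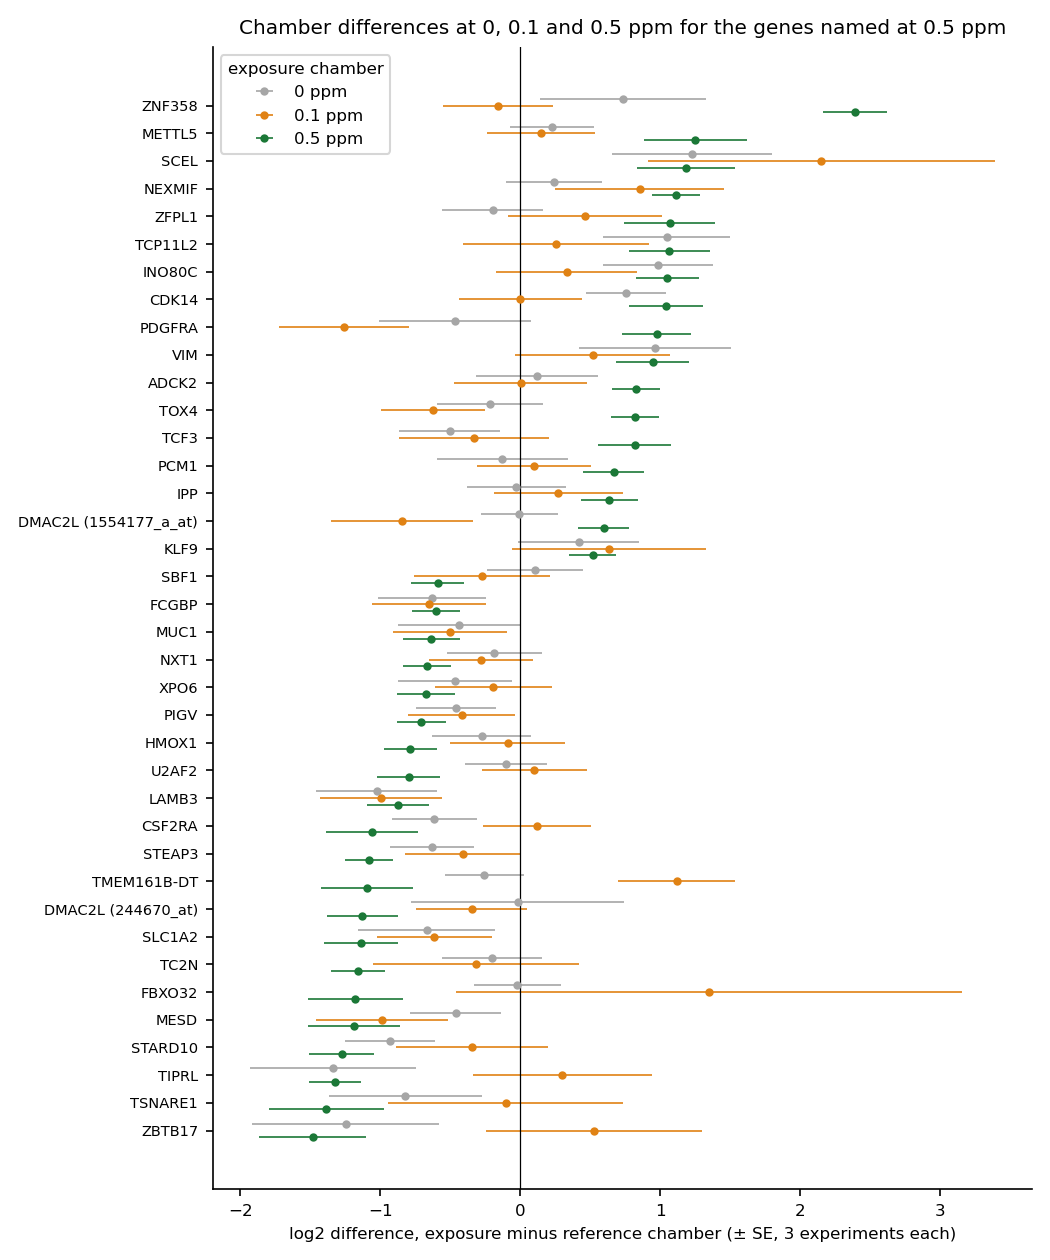
Log2 difference between exposure and reference chamber (x axis, mean ± SE of 3 experiments) at 0, 0.1 and 0.5 ppm for the genes named at 0.5 ppm and for HMOX1, MUC1 and LAMB3; the genes were chosen for the 0.5 ppm values. SCEL, FCGBP, MUC1 and LAMB3 lie on the same side of 0 at all 3 concentrations, whereas PDGFRA, TOX4 and TCF3 lie above 0 at 0.5 ppm and below it at 0 and 0.1 ppm.

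The 12 arrays of the other concentrations were used to ask whether the chamber difference at 0.5 ppm differed from that without formaldehyde or at 0.1 ppm. Against 0 ppm 2583 of 54675 probesets (4.72%) had an unadjusted interaction p under 0.05 in limma, 329 of them among the 27337 brighter ones (1.2%). Against 0.1 ppm the counts were 2164 (3.96%) and 169 (0.618%). None passed after adjustment in either test, where the lowest adjusted p were 0.618 and 0.662. For the 222 brighter probesets called lower at 0.5 ppm, the chamber difference had a median of -0.24 in the experiments without formaldehyde and -0.29 at 0.1 ppm, against -0.04 and -0.06 for all brighter probesets. The 61 called higher had medians of 0.24 at 0 ppm and 0.11 at 0.1 ppm. Of these 283 probesets 14 were called at 0 ppm and 3 at 0.1 ppm, against 251 and 67 of all 27337 brighter probesets. The 3 concentrations share no arrays.

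Of the 35 named probesets 4 had an unadjusted interaction p under 0.05 in limma against 0 ppm and 6 against 0.1 ppm. These probesets were chosen for their difference at 0.5 ppm, which enters the interaction, so the counts and p-values are not independent of the choice and are given as a description. TOX4, an HMG box protein, was counted in both: it differed by -0.21 ± 0.38 at 0 ppm, by -0.62 ± 0.37 at 0.1 ppm and by 0.82 ± 0.17 at 0.5 ppm. TCF3 was counted against 0 ppm, where its chamber difference was -0.50 ± 0.36, and PDGFRA against 0.1 ppm, where it was -1.26 ± 0.47.

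Lists of genes for stress, growth, lipid and barrier functions had few called members. Over all 26 pathway lists 557 of 617 genes were measured, and 1 was called higher and 5 lower (1.08%), against 4.06% of all genes and 0.743% of the 12385 genes above the median signal. The called members were HP higher and HMOX1, MT1M, MUC1, MUC4 and LAMB3 lower. HP, haptoglobin, which binds free hemoglobin, read 29.0, 20.3 and 27.7 in the 0.5 ppm chamber, against 16.6, 5.76 and 17.3 in the reference chamber, close to the median signal or below it. MT1M, a metallothionein, was at 0.415, 0.363 and 0.950 in the 0.5 ppm chamber, against 1.60, 0.580 and 2.09 in the reference chamber, far below the median signal. The medians of the 26 lists lay between -0.23 and 0.06. With the prior spread following the signal, 28 of the 557 had an unadjusted p under 0.05 in limma (5.03%), against 4.65% of all genes.

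The lists of p53 targets, DNA crosslink repair, heat shock proteins and the unfolded protein response had no called member, whereas with the prior spread following the signal 2 p53 targets were higher and 2 crosslink repair genes and 1 heat shock gene lower. In the p53 targets 0 of 20 were called and the median was 0.06. GDF15, a stress-induced cytokine, read 478, 906 and 495 in the 0.5 ppm chamber, against 267, 1007 and 263 in the reference chamber, higher in 2 of 3 experiments, by 0.53 ± 0.32. GADD45A, a growth arrest gene, differed by 0.26 ± 0.18. Of DNA crosslink repair 0 of 22 were called with a median of -0.01, of heat shock proteins 0 of 15 with a median of -0.03, and of the unfolded protein and integrated stress response 0 of 24 with a median of 0.03. CRYAB, a small heat shock protein, was lower in 3 of 3 experiments, by -0.37 ± 0.18 with an unadjusted p of 0.118 in limma. DDIT3, a transcription factor of endoplasmic reticulum stress, differed by -0.17 ± 0.17.

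Signalling and growth lists were likewise near 0. Immediate early factors had 0 of 15 called and a median of 0.04. DUSP1, a phosphatase of MAP kinases, differed by -0.34 ± 0.21 and JUN by 0.25 ± 0.21. Chemokines and interleukins had 0 of 22 called and interferon-induced genes 0 of 20, with medians of -0.04 and -0.07. In mitosis 0 of 30 were called, the median was 0.06, and 21 of 30 means were above 0. NEK2, a centrosomal kinase, and CCNA2, cyclin A, differed by 0.38 ± 0.29 and 0.24 ± 0.20. In glycolysis and hypoxia, 0 of 30 were called, and 2 were higher and 2 lower with the prior spread following the signal. ADM, adrenomedullin, a hypoxia-induced peptide hormone, read 3918, 5317 and 3734 in the 0.5 ppm chamber, against 2980, 3124 and 3116 in the reference chamber. ADM did not overlap between the chambers, differed by 0.47 ± 0.20 and missed the threshold with an unadjusted p of 0.0961 in limma. With the prior spread following the signal ADM had an unadjusted p of 0.0027 in limma and an adjusted p of 0.951. Its difference was 0.40 at both 0 ppm and 0.1 ppm.

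The remaining lists had no called member apart from those given above, and their medians were small. Surfactant and type II cell genes (17 measured), sterol and fatty acid synthesis (22) and DNA replication (29) had medians of -0.0032, 0.01 and 0.02. Phospholipid and triglyceride synthesis (27) had a median of -0.10, and 19 of its means were below 0. PTDSS2, which makes phosphatidylserine, differed by -0.37 ± 0.23. The BCL2 family (15), junctions and keratins (23) and EGFR ligands with ERK feedback (20) had medians of -0.06, 0.05 and -0.04. Of their members PMAIP1, the pro-apoptotic NOXA, differed by 0.47 ± 0.38, EPCAM, an epithelial adhesion molecule, by 0.29 ± 0.22, TJP3, a tight junction protein, by -0.27 ± 0.20 and ERBB2, a receptor kinase, by -0.36 ± 0.29. Metallothioneins (7), osmolyte, ion and water transport (19) and acute phase and complement (16) had medians of -0.09, -0.04 and -0.03. MT1G, a metallothionein, differed by -0.22 ± 0.17 and C3, the central complement component, by -0.44 ± 0.24.

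**Figure D4:**
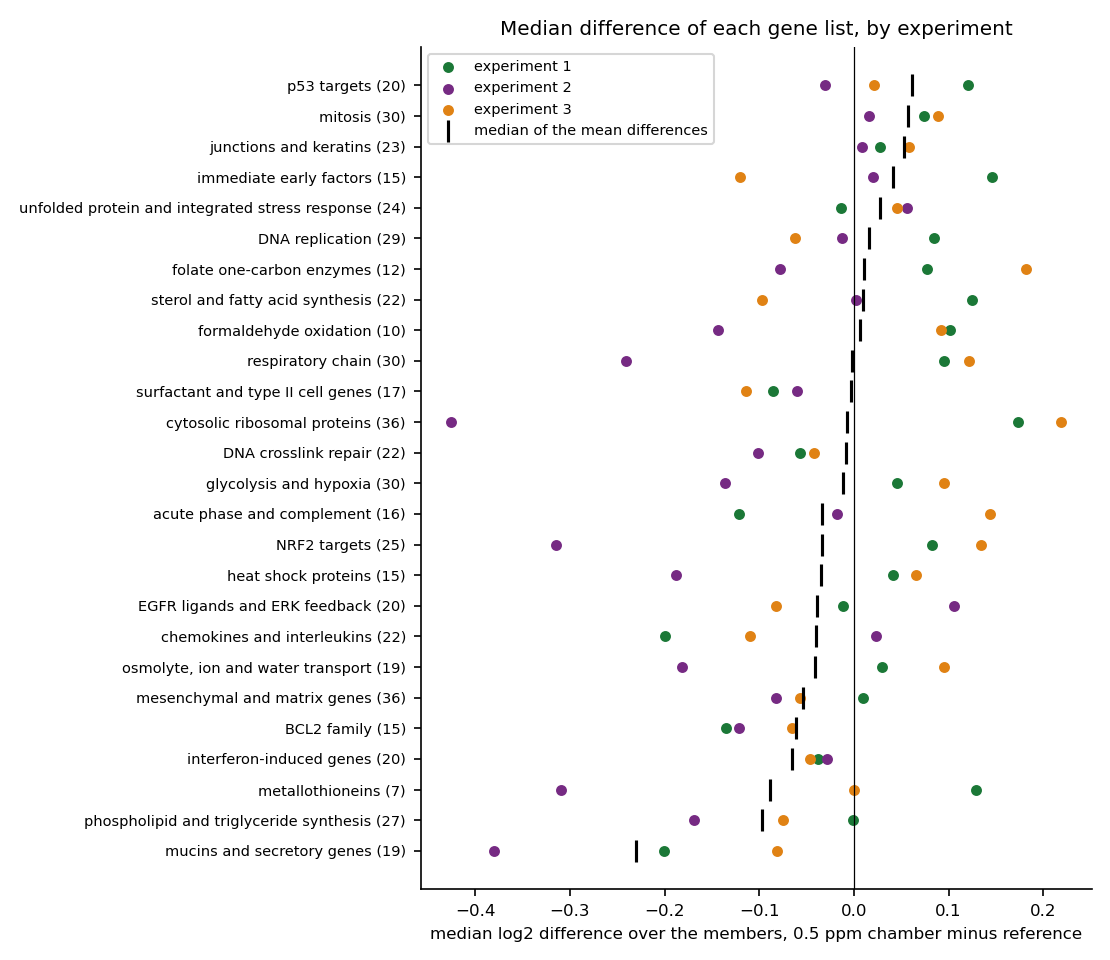
Median log2 difference between the 0.5 ppm and the reference chamber over the measured members of each gene list (x axis; number of members in brackets), as points for each experiment and as a tick for the mean differences. The second experiment stands apart in the cytosolic ribosomal proteins, at -0.43 against 0.17 and 0.22, and no pathway list was below -0.23 in its mean differences.

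The second experiment differed from the other two at the bright end of the scale. Cytosolic ribosomal proteins had medians of 0.17, -0.43 and 0.22 in experiments 1, 2 and 3, and respiratory chain genes had medians of 0.10, -0.24 and 0.12. Neither list had a called member among 36 and 30 measured genes, and their medians over the mean differences were -0.01 and -0.0023. NRF2 targets, metallothioneins and heat shock proteins also had their lowest median in experiment 2, at -0.31, -0.31 and -0.19. The part of this experiment in the list medians was not tested, and without it 7 of the 30 list medians moved by more than the SD of the 3 experiments.

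The cells carried the markers of the line in both chambers. Of 16 markers of A549 and lung epithelium 15 were above the median signal, and their summed signal was between 119836 and 194470 in the 0.5 ppm chamber, against 107678 to 173915 in the reference chamber. MUC1 was the 1 called. Fibroblast markers summed to 376 to 516 in the 0.5 ppm chamber, against 368 to 543 in the reference chamber, and 3 of 10 were above the median signal. Endothelial markers summed to 59.6 to 116, against 54.6 to 96.3, with 1 of 8 above the median. Immune markers summed to 3059 to 5163, against 2948 to 5104, nearly all of it LYZ, lysozyme, and 2 of 11 were above the median. PTPRC, the leukocyte antigen CD45, was called higher at 7.92, 2.73 and 9.67 in the 0.5 ppm chamber, against 1.61, 0.642 and 0.861 in the reference chamber, all below the median signal of 27.5, and its other 4 probesets were not called. Of the fibroblast markers PDGFRA, above the median signal, was called higher, and COL1A2 and PDGFRB, both below it, lower. CLDN5, an endothelial claudin, was called higher and CD79A, a B cell marker, lower, and both were dim.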

How the data were processed

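RNA of A549 cultures was amplified and labelled by the authors and hybridised to 3'-directed oligonucleotide arrays. The authors deposited MAS5 intensity values, linear signals scaled on each array to a trimmed mean of 500, for 54675 probesets; replicates were not pooled. Signals were taken as log2 and compared with limma 3.58.1 (R 4.3.3, lmFit and eBayes) on 6 arrays with experiment as a block. Titles and array names give both chambers of an experiment 1 number, and same-numbered arrays deviated together (r of 0.427 to 0.476 above the median signal, 0.0683 to 0.0919 over all probesets), while differently numbered ones correlated between -0.446 and 0.0201. Each probeset was first centred on its mean within a chamber. Positive values for same-numbered arrays therefore force negative ones among the others. Interactions used 12 arrays. P-values were adjusted by Benjamini-Hochberg over all probesets. 41097 probesets name exactly 1 gene, 1801 name several and 11777 none; only the first were named. Genes in lists were represented by the probeset of highest mean signal.

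Named were, by a rule, the 12 largest rises and falls above the median signal and up to 8 more above the 75th percentile, each with p under 0.05 and 1 direction in all 3 experiments, then list members past the threshold and up to 4 examples per list with the largest differences. The members, lists and rule were chosen with earlier results of these data known. Of the examples, those above the 75th percentile are named in the text or in the closing section, up to 2 a list, and NQO1, ADH5, ALDH2, MUC5B, TFF1, BCL2A1, CCL20, TGFB1, MMP1, CDC45 and LYZ were named after their values were seen. Alternatives were no block, quantile normalization, an offset of 32, brighter probesets alone, a trended prior, all 18 arrays and leaving out each experiment. The fit was tested on simulated data. MAS5 signals of dim probesets are noisy on the log scale, and the number of arrays limits the precision.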

Additional observations from a re-analysis of the deposited data

Results flagged for a closer look

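Some named genes had a chamber difference at 0.5 ppm that was separable from that of the other experiments by the interaction test in limma at an unadjusted p under 0.05; none was after adjustment. All were named for their difference at 0.5 ppm, DUSP1 as an example of its list and the others for passing the threshold. The 0.5 ppm values enter the interaction, so the p-values are not independent of that choice. Against 0 ppm, the 0.5 ppm difference was larger by 1.27 for ZFPL1, 1.03 for TOX4, 1.32 for TCF3 and 1.51 for HP on the log2 scale. It was lower than at 0 ppm by a log2 difference of -1.16 for FBXO32, -1.74 for MUC4, -1.71 for PDGFRB and -1.47 for CD79A. The corresponding unadjusted p in limma were between 0.016 for PDGFRB and 0.045 for TOX4.

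Against 0.1 ppm, the 0.5 ppm difference was larger by 2.55 for ZNF358, 2.23 for PDGFRA, 1.44 for TOX4, 1.44 for DMAC2L in its brighter named probeset and 2.14 for CLDN5. It was lower by -2.21 for TMEM161B-DT, -1.18 for CSF2RA, -2.26 for MT1M, -2.39 for COL1A2 and -1.31 for DUSP1. The unadjusted p in limma were between 0.00081 for ZNF358 and 0.0462 for CSF2RA. MT1M, COL1A2, CLDN5, PDGFRB, CD79A, HP and MUC4 were below the median signal. TOX4 was the 1 gene past the threshold in both tests.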

How the results depend on the processing

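Over all probesets the count of 2908 stayed within 1.5 times under each alternative except fitting the brighter probesets alone, which can call no dim ones and gave 1480. The count of 283 brighter probesets depended more on the setting. It was 170 with all 18 arrays, 155 without the replicate block (2145 over all probesets), 1740 with an offset of 32, 1480 when fitted alone, 1389 with a trended prior and 258 after quantile normalization. Leaving out 1 experiment gave 48 to 120 (3110 to 3344 over all probesets): 59 without experiment 1, 120 without experiment 2 and 48 without experiment 3. Fitted on brighter probesets alone, the interaction counts were 1036 against 0 ppm and 601 against 0.1 ppm, where all probesets gave 2583 and 2164. Leaving out 1 experiment gave 2526 to 4308 against 0 ppm, the highest without experiment 1 of the 0 ppm series, and 2192 to 2661 against 0.1 ppm; the cause was not tested.

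The 35 named probesets kept their direction under all 9 alternatives. ZNF358 and NEXMIF passed the threshold in each; TIPRL also passed in all 3 fits that left out an experiment, and 20 of the 35 passed in none of those. Without the pairing 20 of 35 passed, and FCGBP was among those that did not; nor did HMOX1 and MUC1 pass. HMOX1 passed in 5 of 9 alternatives, MUC1 in 3 and LAMB3 in 7. Some genes named as examples and not called turned sign when 1 experiment was left out. Over these fits the log2 difference of MT1F ran from -0.28 to 0.072 and that of HSPB1 from -0.24 to 0.062, both above 0 without experiment 2. That of DUSP6 ran from -0.026 without experiment 2 to 0.50, and that of HSP90B1 from -0.98 to 0.25, above 0 without experiment 3. Taking the mean of all probesets of a gene moved 6 of 30 list medians by more than the SD of the 3 experiments. Signals near or below the median carry the least precise log2 differences.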

Other observations

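Of the list members that had an unadjusted p under 0.05 in limma only when the prior spread followed the signal, some had the same sign in all 3 experiments. None passed after adjustment. BCL2A1, an anti-apoptotic BCL2 relative, read 173, 132 and 121 in the 0.5 ppm chamber, against 124, 93.3 and 89.0 in the reference chamber, a log2 difference of 0.47 ± 0.17. CCL20, a chemokine of lymphocytes and dendritic cells, read 208, 152 and 119 in the 0.5 ppm chamber, against 363, 194 and 155 in the reference chamber, which is -0.51 ± 0.20. CCL20 differed by 0.60 at 0 ppm and 0.07 at 0.1 ppm.

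TGFB1, transforming growth factor beta 1, and MMP1, a collagenase, were also lower in 3 of 3 experiments, by -0.52 ± 0.20 and -0.40 ± 0.19. CDC45, a helicase cofactor of DNA replication, read 151, 237 and 156 in the 0.5 ppm chamber, against 177, 424 and 224 in the reference chamber, and differed by -0.53 ± 0.22. SLC2A3, a glucose transporter, was higher in 3 of 3 experiments by 0.46 ± 0.21. NFAT5, the transcription factor of the response to hypertonicity, read 2772, 2632 and 2120 in the 0.5 ppm chamber, against 2917, 1314 and 1079 in the reference chamber. NFAT5 was higher in 2 of 3 experiments, by 0.63 ± 0.32 on average. The standard errors are those of limma without the trend.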
